A study of Mus musculus with 12 samples.

Results

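The response of mouse CD4 T cells to linoleic acid was measured as the difference between 3 single-colour expression arrays of CD4 T cells from linoleic acid culture and 3 of CD4 T cells from control culture, 6 of the 12 arrays of the series. The treated group met 50 µM linoleic acid, a single dose, during a 24 h culture of whole splenocytes (the mixed cells of the spleen), and the control group was cultured as long with none. T cells were sorted afterwards, so B cells, myeloid cells and other spleen cells met the fatty acid too, and the labels name no strain, genotype, age or stimulus. The remaining 6 arrays hold CD8+ T cells sorted after the same 2 kinds of culture. The array named 22180 genes, and the 14323 whose mean passed a filter on dim genes were tested. Values are log2 intensities, on which a difference of 1 is a doubling. The labels number the arrays 1 to 3 in each group but do not name what the number stands for, such as an animal or a culture. The p-values therefore speak for the spread among these arrays only, and that spread may be technical. In sorted cell pools, fewer cells of a type and less RNA per cell cannot be told apart.

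Linoleic acid is an omega-6 polyunsaturated fatty acid of the diet. Long-chain fatty acids enter the mitochondrial matrix through the carnitine shuttle: carnitine palmitoyltransferase 1 on the outer membrane moves the acyl group from coenzyme A to carnitine, a carrier brings the acylcarnitine across the inner membrane, and carnitine palmitoyltransferase 2 returns the acyl group to coenzyme A for beta-oxidation. CPT1A is the form of the first enzyme found in most tissues, its step is the rate-limiting one, and malonyl-CoA, the product of acetyl-CoA carboxylase, inhibits it. Fatty acids also act as ligands of the PPAR nuclear receptors, which pair with RXR on DNA and have the carnitine shuttle genes among their known targets. The double bonds of linoleic acid need additional isomerase and reductase enzymes before beta-oxidation can finish. In T cells, memory and regulatory cells are known for their use of fatty acid oxidation, and activated effector cells for glycolysis.

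T cell markers were high in all 6 arrays. Cd4, the CD4 co-receptor, read 11.19, 10.77 and 10.80 in the control arrays numbered 1, 2 and 3 and 11.13, 10.90 and 10.82 with linoleic acid, and Cd3e, a chain of the T cell receptor complex, read 11.68, 11.43 and 11.12 and 11.62, 11.55 and 11.25. Cd8a, a chain of the CD8 co-receptor, read 5.41, 6.16 and 6.43 in control and 5.01, 6.78 and 6.82 with linoleic acid, and Cd8b1, the other chain, read 7.41, 7.30 and 7.57 and 7.05, 7.88 and 7.94. Both cultures overlapped for each of these 4 genes. Markers of other spleen cells followed the array number more than the culture. The mean of 11 tested B cell markers was 6.53, 7.84 and 7.69 in control and 6.52, 7.98 and 7.95 with linoleic acid, and that of 12 myeloid markers was 5.11, 5.86 and 5.87 and 5.22, 6.06 and 5.97. Number 1 was thus low in both cultures, and the same-numbered differences were small beside the gap between numbers. Cd79a, part of the B cell receptor, lay 0.29 and Clec7a, a myeloid receptor for fungal glucan, 0.42 above control on the log2 scale. Same-numbered arrays differed by 0.09, 0.24 and 0.56 for Cd79a and by 0.52, 0.60 and 0.14 for Clec7a. Among left-out arrays, each turned sign only where a single array was dropped without its same-numbered partner. In limma with the array number as a block, 2 of 11 B cell and 2 of 12 myeloid markers had an unadjusted p under 0.05. All of these lay higher, against 2.31% of all tested genes. All 6 tested dendritic cell markers, and Csf1r, Itgam, Adgre1, S100a8 and S100a9 among the myeloid ones, lay below the background level defined next. The background was gauged by 1409 olfactory, vomeronasal and trace amine receptor genes, which serve smell, with array means of 2.99, 3.27 and 3.28 in control and of 3.07, 3.25 and 3.38 with linoleic acid. Their 95th percentile, log2 5.11, is called the background level, and 9857 tested genes exceeded it. The plot of marker lists by array shows these levels.

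**Figure D1:**
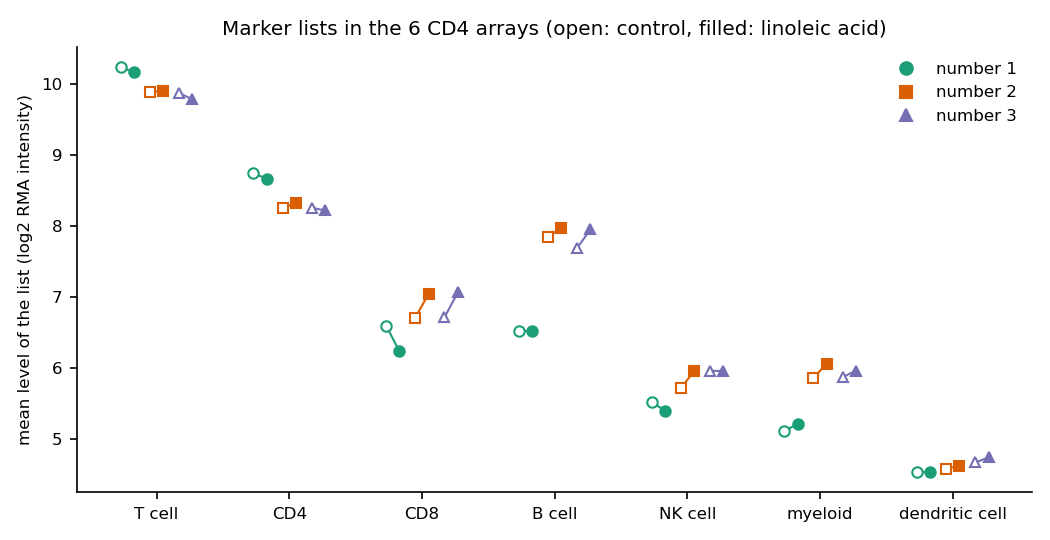
Mean log2 RMA intensity of each marker list in the 6 CD4 arrays, with open symbols for control and filled symbols for linoleic acid culture, joined within a number. The B cell and myeloid means of number 1 lie below those of numbers 2 and 3 in both cultures.

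Cpt1a was the gene with the largest difference in CD4 T cells. Its probe set (17355915) read 6.99, 6.40 and 6.62 in the control arrays and 8.34, 7.96 and 7.72 in the linoleic acid arrays numbered 1, 2 and 3. All 3 linoleic acid arrays lay above all 3 control arrays, and the highest control array and the highest linoleic acid array carried the same number. The means were log2 6.67 ± 0.30 (SD, n = 3) and 8.01 ± 0.31 (SD, n = 3), which is 2.52-fold more with linoleic acid (log2 1.34 ± 0.23 SE). The same-numbered arrays differed by 1.35, 1.57 and 1.10. In limma's fit without a block, where 0 of 14323 genes (0.0%) passed the threshold of 0.05 and 373 had an unadjusted p under 0.05, Cpt1a had the smallest p (5.9e-05, adjusted p = 0.845). With the array number as a block it rose past the threshold (adjusted p = 0.00335, with a range of 0.00045 to 1 over all alternatives), and it was the 1 gene of 14323 to do so (0.00698%). The next smallest adjusted p in the blocked limma fit was 0.217. An exact two-sided permutation test of the 6 arrays gave p = 0.1, the smallest that 3 against 3 allows, and an exact sign-flip test of the 3 pairs gave p = 0.25, also the smallest possible. With number 1 left out of the blocked limma fit, Cpt1a had an adjusted p = 0.0532 and a single other gene passed, while it passed without number 2 (0.0317) or number 3 (0.0219).

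**Figure D2:**
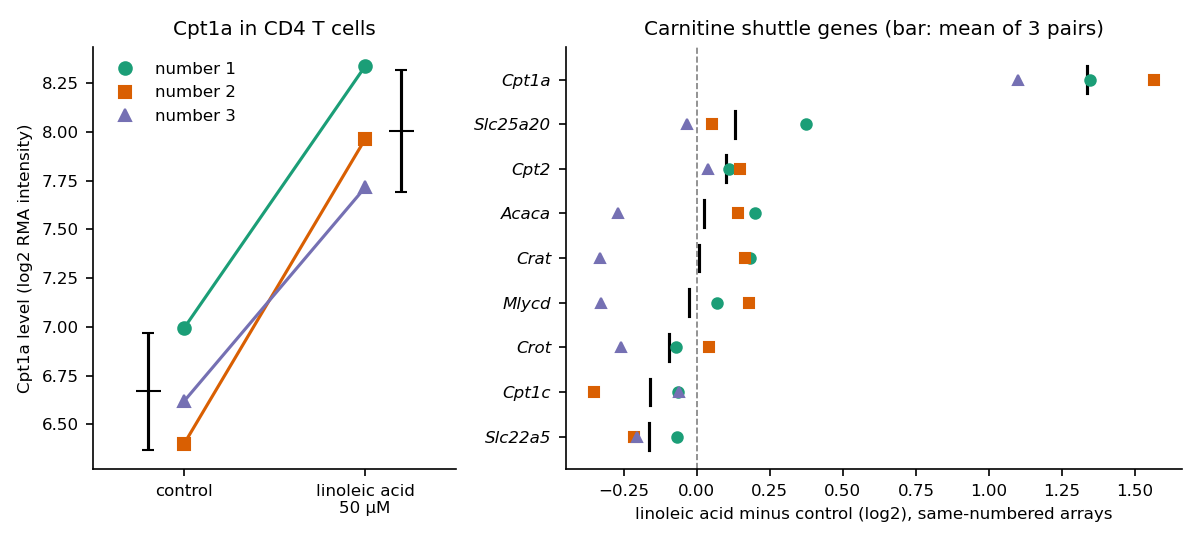
Left, Cpt1a level (log2 RMA intensity) in each CD4 array, with lines joining arrays of the same number and black bars giving mean ± SD of 3 arrays. Right, differences of same-numbered arrays (log2) for the 9 tested carnitine shuttle genes, with black bars at the mean of 3 pairs, where Cpt1a lies apart from the other members.

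The bases just upstream of Cpt1a are shown because it was the gene that passed. RefSeq places them at chr19:3323051-3323300 on the plus strand of GRCm38.p6, over the 250 bases before the transcript start. Capitals mark every match on either strand to the nuclear receptor half-site AGGTCA, the GC box GGGCGG bound by Sp1 family factors and the CCAAT box.
Cpt1a: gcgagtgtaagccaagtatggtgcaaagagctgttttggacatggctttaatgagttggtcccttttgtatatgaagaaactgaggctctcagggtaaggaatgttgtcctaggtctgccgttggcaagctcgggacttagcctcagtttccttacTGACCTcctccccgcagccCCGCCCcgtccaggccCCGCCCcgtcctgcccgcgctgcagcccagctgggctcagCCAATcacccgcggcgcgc
The half-site match lies on the opposite strand, 94 to 89 bases before the start, the GC boxes lie on the opposite strand from 75 to 70 and from 59 to 54, and the CCAAT box lies on the gene's strand from 19 to 15. None of these matches overlap. Of 13907 upstream windows of tested genes, 11.5% held the half-site, 52.3% the GC box and 34.4% CCAAT. A direct repeat of the half-site spaced by 1 base, the element PPAR and RXR are known to bind together, had no match to those exact letters in this window and was found in 0.0431% of all windows. These matches describe the sequence and say nothing of which factors were bound.

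The other carnitine shuttle genes lay close to 0. Of 9 tested members, 5 lay higher and 4 lower, the list median was 0.01 against -0.00 for all tested genes, and Cpt1a was the only member with an unadjusted p under 0.05 in limma. Slc25a20, the inner membrane carrier, read 6.56, 6.70 and 6.70 in control and 6.93, 6.75 and 6.67 with linoleic acid, so that number 1 stood higher and number 3 did not (log2 0.13 ± 0.11 SE). Cpt2, the matrix enzyme, read 6.0, 5.80 and 5.98 and 6.11, 5.95 and 6.01, higher in all 3 pairs by 0.11, 0.15 and 0.04 but overlapping between cultures (log2 0.10 ± 0.12 SE). Slc22a5, which takes up carnitine across the plasma membrane, lay lower in all 3 pairs (log2 -0.16 ± 0.14 SE). The difference of Cpt1c, a brain form below the background level, was -0.16. Crat and Crot, the acetyl and octanoyl transferases, had differences of 0.01 and -0.10. Acacb, the mitochondrial carboxylase, did not pass the filter on dim genes. Among the enzymes that set malonyl-CoA, the carboxylase Acaca was at 0.02 and the decarboxylase Mlycd at -0.03, and each turned sign when certain arrays were left out. Pair 3 lay below the other pairs for Acaca, Crat, Crot and Mlycd.

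The medians of mitochondrial beta-oxidation, peroxisomal beta-oxidation and PPAR target genes lay near that of all genes, and the auxiliary enzymes for double bonds lay lower. Of 18 mitochondrial beta-oxidation genes 7 lay higher and 11 lower, with a median of -0.04. The smallest p in that list belonged to Hadhb, the beta subunit of the trifunctional protein, at -0.25, and Hibch, of valine breakdown, at -0.28 (unadjusted p = 0.0866 and 0.087 in limma). All 5 tested auxiliary enzymes for double bonds lay lower, with a median of -0.16, or -0.06 with the arrays numbered 3 left out. They were the isomerases Eci2 at -0.23, Eci1 at -0.17 and Ech1 at -0.16, the dienoyl-CoA reductase Decr1 at -0.08 and its peroxisomal relative Decr2 at -0.06. Each of these overlapped between the cultures, and 0 had an unadjusted p under 0.05 in limma with or without the block. Decr2 was named after its value was seen and turned sign when certain arrays were left out. In peroxisomal beta-oxidation 8 of 14 genes lay higher and the median was 0.05.

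Of 27 listed PPAR target genes, 22 were measured and 14 passed the filter on dim genes. Their median was 0.03, with 8 higher and 6 lower, and among those tested Cpt1a was the only one whose cultures did not overlap. Plin2, which coats lipid droplets, read 5.59, 5.72 and 5.62 in control and 5.71, 5.73 and 5.97 with linoleic acid, with number 3 highest (log2 0.16 ± 0.15 SE). Pdk4, the kinase that shuts pyruvate dehydrogenase, and Angptl4, an inhibitor of lipoprotein lipase, are strong PPAR targets in other tissues and lay below the background level here. Hilpda, another lipid droplet protein, was at -0.18, with pair differences of 0.06, 0.04 and -0.64, and Acadm, the medium-chain acyl-CoA dehydrogenase, named after its value was seen, at -0.16. Of the receptors, Ppara and Pparg did not pass the filter on dim genes. Ppard, the third receptor, lay above background with a difference of -0.03 and pair differences of -0.13, -0.23 and 0.27. It was named after its value was seen and turned sign in some alternatives. In the list of fatty acid uptake, activation and storage 15 of 27 genes lay lower (median -0.04). The lipid droplet proteins Plin4, which had its smallest p, and Plin5 lay below the background level. Fabp3, a cytosolic fatty acid carrier, read 9.30, 9.41 and 9.42 in control and 9.22, 9.19 and 9.18 with linoleic acid, with every treated array below every control (log2 -0.18 ± 0.10 SE, unadjusted p = 0.09 in limma). Enzymes that turn polyunsaturated fatty acids into eicosanoids and longer chains had 11 of 18 genes lower and a median of -0.03. Among them Ltc4s, leukotriene C4 synthase, and the prostaglandin E synthase Ptges2 lay below the background level, the lipoxygenase Alox5 was at -0.12 ± 0.10 SE and the cyclooxygenase Ptgs2 at 0.32 ± 0.29 SE. Fatty acid synthesis genes had a median of 0.00 (7 of 13 higher), cholesterol synthesis genes one of -0.02 (5 of 19 higher) and LXR target genes one of 0.01 (9 of 13 higher). Of the genes in this paragraph Cpt1a passed the limma threshold, with the block, and no other did in either fit.

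Over all 14323 genes the differences were small and little shared between pairs. Besides Cpt1a, 3 genes, a small nucleolar RNA and 2 vomeronasal receptors, differed by more than 1 on the log2 scale, and 88 differed by more than 0.5, of which 48 lay higher and 40 lower. The differences of any 2 pairs correlated across genes at 0.08, 0.11 and 0.04, as a description over genes that share arrays. The medians of the pair differences were -0.01, 0.05 and -0.04, and for genes above background they were -0.02, 0.07 and -0.07. Genes with an unadjusted p below 0.05 in limma numbered 110 on the higher side (0.768%) and 263 on the lower (1.84%) without the block, and 331 (2.31%) and 473 (3.3%) with it. The cultures did not overlap for 418 genes (2.92%) that lay higher and 648 (4.52%) that lay lower. All 3 pairs lay higher for 1927 genes (13.5%) and lower for 2018 (14.1%), and the list counts given next are to be read against these shares.

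The genes with the largest negative differences were taken among those above background, with an unadjusted p below 0.05 in limma and no overlap between cultures. They were of mixed function. A subunit each of the cytoplasmic ribosome, the mitochondrial ribosome and ATP synthase stood beside genes such as Nnat, Spo11 and Osr1. Rps20, a protein of the small ribosomal subunit, read 7.44, 7.15 and 7.18 in control and 7.04, 6.52 and 6.33 with linoleic acid (log2 -0.63 ± 0.22 SE). Eif4a2, an RNA helicase of translation initiation, read 10.71, 10.66 and 10.56 and 10.27, 9.90 and 9.99 (log2 -0.59 ± 0.14 SE). Among the named genes, Eif4a2 and then Rps20 came next to Cpt1a by p in the blocked limma fit (adjusted p = 0.217 and 0.217). Tbca, a tubulin folding cofactor, read 7.15, 7.24 and 7.30 in control and 6.69, 6.49 and 6.71 with linoleic acid, so that each culture spanned a narrow range with a wide gap (log2 -0.60 ± 0.13 SE). Atp5mpl, a small subunit of ATP synthase, read 7.57, 7.73 and 8.19 and 7.28, 7.22 and 7.21 (log2 -0.60 ± 0.17 SE), with the 3 linoleic acid arrays close together and the control arrays spread. Glrx3, a glutaredoxin of iron handling, was at -0.55 ± 0.18 SE and lowest in linoleic acid array 3. Mrpl32, of the mitochondrial ribosome, was at -0.53 ± 0.16 SE, the phosphatase Ptp4a1 at -0.53 ± 0.18 SE, Nnat (neuronatin, a small membrane protein) at -0.56 ± 0.15 SE, the meiotic protein Spo11 at -0.59 ± 0.16 SE and the transcription factor Osr1 at -0.53 ± 0.12 SE. The blocked fit put Ndufa4, a subunit of respiratory complex IV, at -0.52, Ndufb8, of complex I, at -0.48 and the mitochondrial co-chaperonin Hspe1 at -0.41 among its smallest p. Hspe1 read 6.73, 6.76 and 6.72 in control and 6.35, 6.32 and 6.31 with linoleic acid, with little spread in either culture. None of them passed the limma threshold in either fit.

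The genes with the largest positive differences by the same rule, after Cpt1a, included regulators of signalling and transcription. Dusp5, a phosphatase that acts on nuclear ERK, read 7.23, 7.24 and 7.77 in control and 7.91, 7.99 and 7.88 with linoleic acid, where control array 3 came close to the treated arrays (log2 0.52 ± 0.21 SE). Nfkbiz, a nuclear regulator of NF-κB targets, read 8.18, 8.04 and 8.0 and 8.46, 8.46 and 8.44, with little spread in either culture (log2 0.38 ± 0.11 SE). Nr2f6, an orphan nuclear receptor, read 5.13, 5.36 and 5.42 and 5.74, 5.72 and 5.71 (log2 0.42 ± 0.13 SE). Sort1, the sorting receptor sortilin, was at 0.41 ± 0.15 SE, with almost no difference in number 1 (0.01). Prrt2 was at 0.51 ± 0.23 SE, Chst11, a chondroitin sulfotransferase, at 0.40 ± 0.17 SE, Ppp2r2d, a regulatory subunit of protein phosphatase 2A, at 0.39 ± 0.17 SE, the matrix protein Tgfbi at 0.39 ± 0.18 SE and Pou2f2, the transcription factor Oct-2, at 0.37 ± 0.15 SE. By the blocked fit, Nr4a1, Dcpp3 (0.61), Speer4c (0.54), the adhesion molecule Ceacam1 (0.49) and Ebf1 (0.39), a B cell transcription factor, also had small p. Ebf1 read 5.79, 7.23 and 7.09 in control and 6.18, 7.61 and 7.50 with linoleic acid, so its cultures overlapped, with number 1 low in both, and it belongs to the B cell marker list. Same-numbered arrays differed by 0.39, 0.38 and 0.41 for Ebf1. Ebf1 and Speer4c turned sign only when control array 1 was left out without its same-numbered partner. None of these genes passed the limma threshold in either fit.

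**Figure D3:**
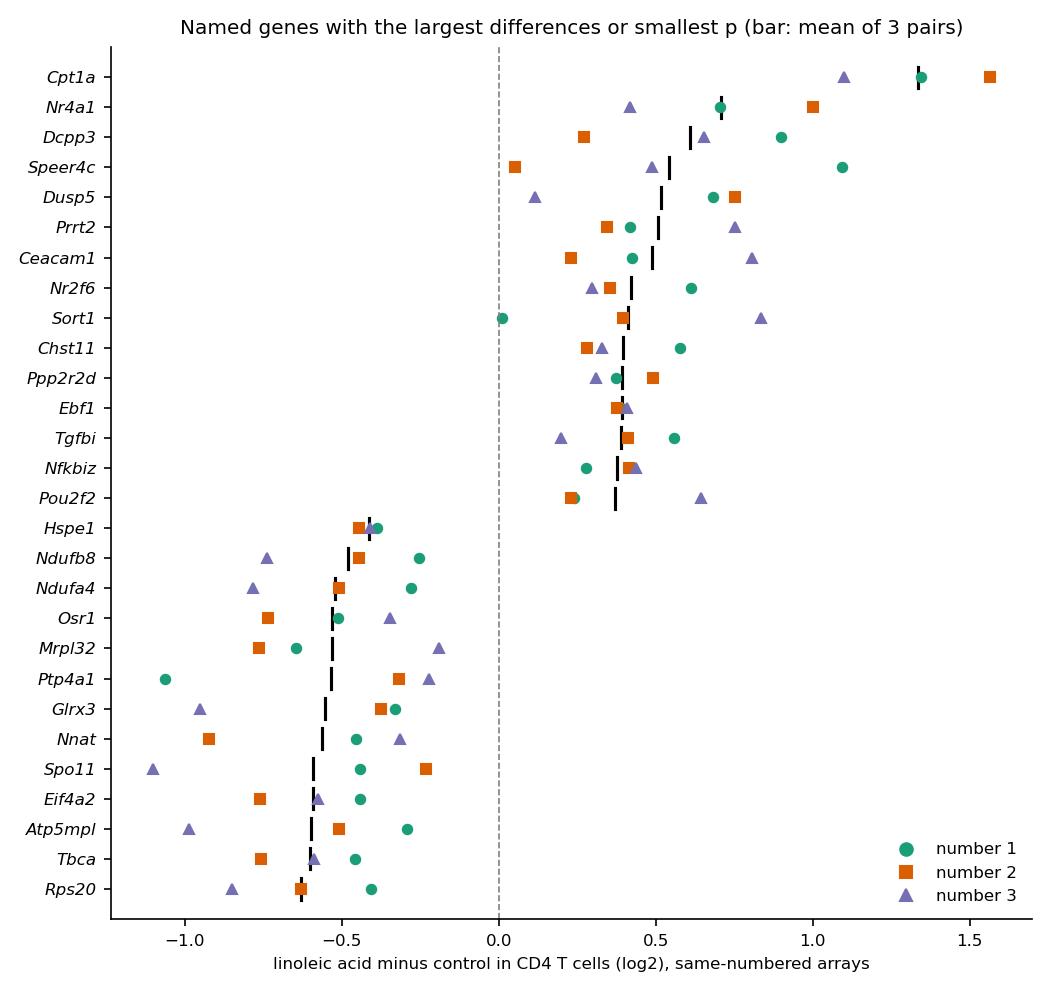
Differences between linoleic acid and control arrays of the same number (log2) for Cpt1a and the other genes with the largest differences or smallest p, ordered by their mean (black bars). All 3 pairs lie on the same side of 0 for every gene shown, and Cpt1a lies highest.

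Nuclear genes of the respiratory chain lay lower almost throughout. Of 32 tested complex I genes, which take electrons from NADH, 30 lay lower and 2 higher, with a median of -0.20 against -0.00 for all genes. All 3 pairs were lower for 19 of them (59.4%) and the cultures did not overlap, on the lower side, for 11 (34.4%). Ndufa12 read 6.58, 6.69 and 7.0 in control and 6.32, 6.31 and 6.31 with linoleic acid, with the treated arrays together below every control (log2 -0.44 ± 0.13 SE). Ndufc2 was at -0.42 ± 0.14 SE and Ndufa2 at -0.39 ± 0.14 SE, both without overlap. The members that lay higher were Ndufb11 at 0.06 and Ndufs5 at 0.03. Complexes II and III, which feed electrons from succinate and from ubiquinol, had 10 of 13 members lower and a median of -0.17. Among them Uqcrh, the hinge protein of complex III, was at -0.31, its core subunit Uqcrc2 at -0.27 and the iron-sulfur subunit Sdhb of complex II at -0.23. On the other side lay Uqcr11 at 0.23, Uqcrc1 at 0.11 and Sdha at 0.02. Complex IV, cytochrome c oxidase, had 11 of 12 lower, a median of -0.19 and Cox7a2l as the member that lay higher (0.02). Ndufa4 read 8.83, 8.87 and 9.35 in control and 8.55, 8.36 and 8.57 with linoleic acid, below every control array in each case, and Cox7a2 read 7.59, 7.86 and 7.66 and 7.49, 7.34 and 7.16, likewise without overlap.

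ATP synthase, which makes ATP from the proton gradient, had a median of -0.23, the lowest of the 4 respiratory lists. It had 17 of 18 members lower, 14 lower in all 3 pairs (77.8%) and 9 without overlap (50.0%). Atp5md read 9.77, 9.80 and 9.76 in control and 9.40, 9.27 and 9.35 with linoleic acid, a gap far wider than the spread of the controls (log2 -0.44 ± 0.13 SE). Atp5g3, a ring subunit, was at -0.40 ± 0.12 SE and Atp5pb, of the stator, at -0.32 ± 0.12 SE. The catalytic subunits Atp5a1 and Atp5b were nearer 0, at -0.07 and -0.07, and Atp5d was the member that lay higher, at 0.10. Atp5d turned sign when a gene's probe sets were averaged. These 3 genes and the members of the other complexes that lay higher were named after their values were seen, and Ndufb11, Ndufs5, Sdha, Cox7a2l and Atp5a1 turned sign when certain arrays were left out. The median difference in pairs 1, 2 and 3 was -0.16, -0.19 and -0.26 for ATP synthase, -0.15, -0.13 and -0.31 for complex I, -0.08, -0.16 and -0.18 for complexes II and III and -0.16, -0.01 and -0.16 for complex IV. Pair 3 was the lowest in each of these 4 lists, narrowly so in complex IV, where pair 2 showed almost no difference. Across the 4 lists together, 75 genes were tested and 68 lay lower. Of these 75, 15 had an unadjusted p below 0.05 in limma and 21 did in the blocked fit, all on the lower side, and 0 passed the threshold. With the mean of the background receptor genes as a covariate the medians were -0.19 for complex I, -0.16 for complexes II and III, -0.17 for complex IV and -0.24 for ATP synthase, and with the B cell marker mean -0.19, -0.16, -0.17 and -0.24. With every array numbered 3 left out they were -0.12, -0.11, -0.10 and -0.19.

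**Figure D4:**
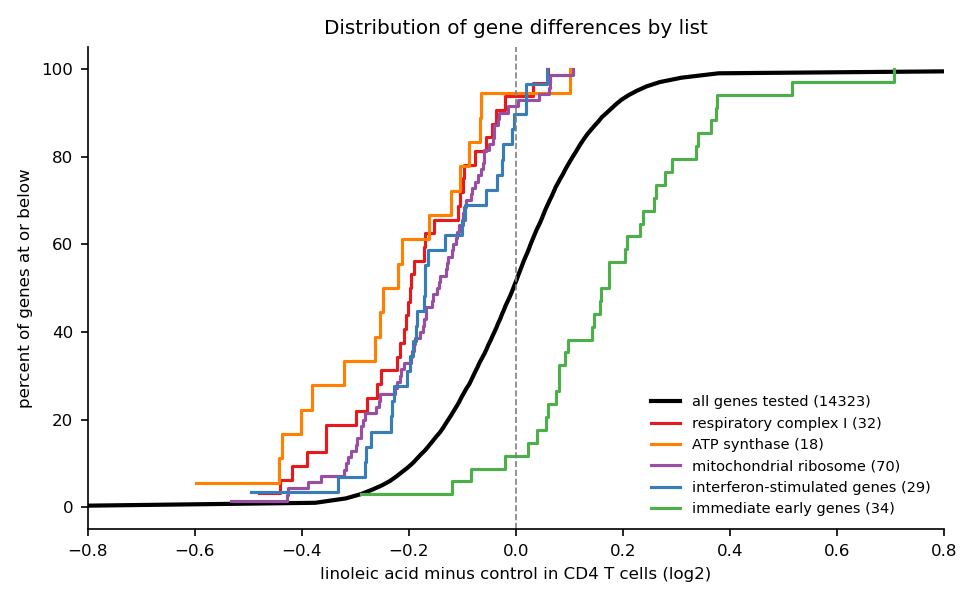
Cumulative share of genes (percent) against the difference between linoleic acid and control in CD4 T cells (log2) for all tested genes (black) and 5 lists. The curves of complex I, ATP synthase, the mitochondrial ribosome and the interferon-stimulated genes lie left of the black curve over most of their range and that of the immediate early genes right of it.

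The machinery that builds the respiratory chain lay lower as well. The mitochondrial ribosome, which translates the subunits encoded in mitochondrial DNA, had 64 of 70 genes lower, a median of -0.15, 36 lower in all 3 pairs (51.4%) and pair medians of -0.16, -0.03 and -0.26. Mrps18c read 5.30, 5.44 and 5.64 in control and 4.99, 5.0 and 5.10 with linoleic acid, with no overlap (log2 -0.43 ± 0.12 SE). All 3 of its linoleic acid arrays lay below the background level of 5.11. Mrpl32 read 6.99, 6.77 and 6.56 and 6.34, 6.01 and 6.37, Mrpl23 was at -0.43 ± 0.15 SE and Mrpl55 at -0.25 ± 0.10 SE. Import and assembly factors had 25 of 28 lower and a median of -0.17, among them Timm8b, an intermembrane space chaperone, at -0.33 ± 0.12 SE and Coa6, of complex IV assembly, at -0.31 ± 0.14 SE. With the arrays numbered 3 left out the medians were -0.10 for the mitochondrial ribosome and -0.08 for this list. Tricarboxylic acid cycle genes had 17 of 24 lower and a median of -0.09, and pair 2 went the other way (-0.09, 0.07 and -0.20). That median was -0.02 with the arrays numbered 3 left out. Dld, shared by the 2-oxoacid dehydrogenases, was at -0.33 and Sucla2, of succinyl-CoA synthetase, at -0.27. Glycolysis genes were split, 8 higher and 9 lower with a median of -0.02.

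Other housekeeping complexes lay lower too. Cytoplasmic ribosomal proteins had 50 of 59 lower and a median of -0.09, with 17 lower in all 3 pairs (28.8%). Rps14 was at -0.36 ± 0.14 SE and Rps27 at -0.34 ± 0.14 SE. The probe set of Rps14 was dim for this list, with a 12-array mean of 5.585 against a list median of 9.57. That of Rps27 had a mean of 8.53, and that of Rps20, described above, one of 6.995, also below the list median. Ribosomal proteins have many processed copies in the genome whose transcripts probes may not part. The proteasome, which degrades tagged proteins, had 35 of 40 lower and a median of -0.14, with pair medians of -0.09, -0.02 and -0.28. Psmd6, of its regulatory particle, read 7.42, 7.28 and 7.58 in control and 7.21, 7.06 and 6.76 with linoleic acid, without overlap, and the core subunits Psmb1 and Psmb4 were at -0.34 and -0.30. Spliceosomal small ribonucleoproteins had 21 of 28 lower and a median of -0.09. Among them Snrpe read 7.21, 7.26 and 7.63 and 7.03, 6.91 and 6.98, Snrpg was at -0.38, Snrpb2 at -0.36 and Lsm3 at -0.33. Chaperonin, prefoldin and tubulin cofactors, the folding path of actin and tubulin, had 15 of 17 lower and a median of -0.16, with Cct8 at -0.27 and Pfdn5 at -0.29. Pair 3 lay lowest in both the proteasome and the chaperonin list (-0.09, -0.03 and -0.37 for the latter). It was also the lowest pair for all genes above background (-0.02, 0.07 and -0.07). With the arrays numbered 3 left out the medians were -0.06 for ribosomal proteins, -0.06 for the proteasome, -0.04 for small ribonucleoproteins and -0.07 for the chaperonin list. None of the named genes in these lists passed the limma threshold.

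**Figure D5:**
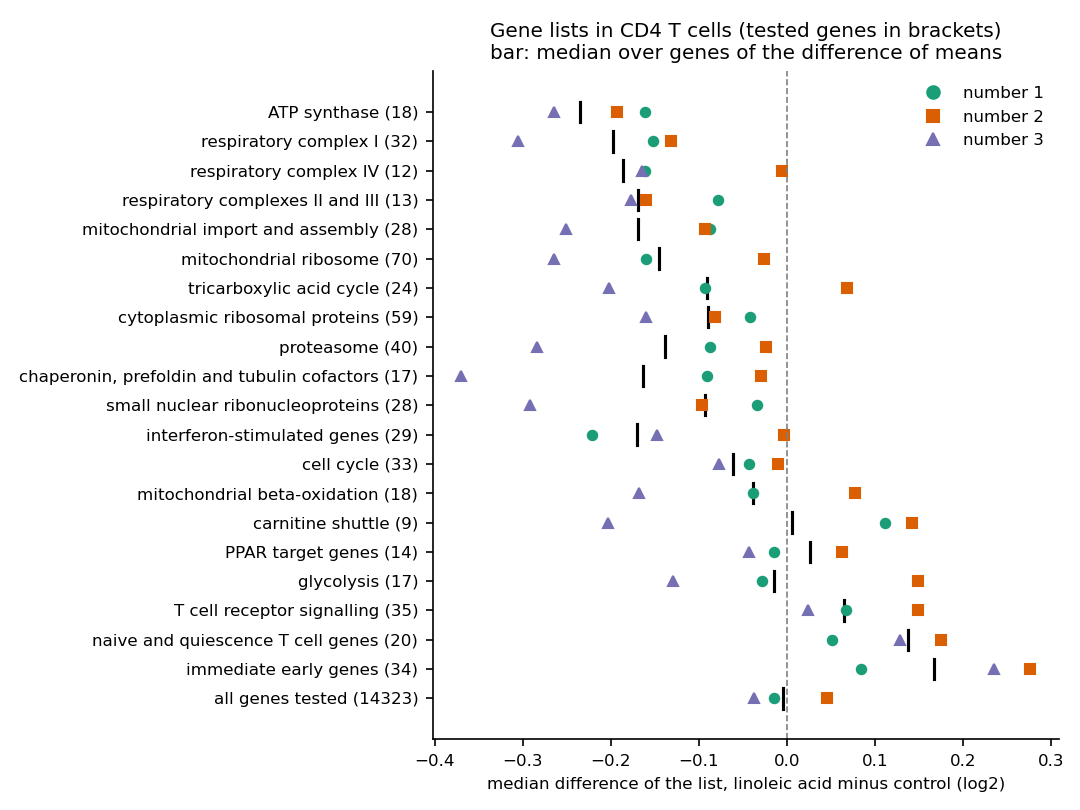
Median difference of each gene list in same-numbered pairs (symbols, log2) and of the difference of culture means (black bars), with the number of tested genes in brackets. The mitochondrial lists from ATP synthase to the mitochondrial ribosome lie below 0 in all 3 pairs. So do the cytoplasmic ribosomal, proteasome, chaperonin, small ribonucleoprotein, interferon and cell cycle lists. The immediate early, naive T cell and receptor signalling lists lie above 0 in every pair, and the all-gene medians lie close to 0.

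Immediate early genes, which T cells switch on within minutes of receptor or stress signals, lay higher. Of 34 tested, 30 did so, with a median of 0.17 and pair medians of 0.08, 0.28 and 0.23. All 3 pairs were higher for 14 (41.2%) and 3 had no overlap between cultures. In limma 4 had an unadjusted p below 0.05, or 8 in the blocked fit, all on the higher side, and 0 passed the threshold. Nr4a1, the nuclear receptor Nur77 that reports T cell receptor signal strength, read 6.84, 7.22 and 7.69 in control and 7.54, 8.22 and 8.11 with linoleic acid. Each linoleic acid array lay above its own number, but control array 3 lay above linoleic acid array 1 (log2 0.71 ± 0.31 SE, limma adjusted p = 1, and 0.575 with the block). Egr2, a zinc finger factor of the same signal, read 5.52, 5.47 and 5.41 and 5.68, 5.91 and 5.92, without overlap (log2 0.37 ± 0.15 SE). Dusp5 and Nfkbiz, described above, belong to this list too. Klf6, a zinc finger factor, had pair differences of 0.40, 0.40 and 0.32 and overlapping cultures. The members that lay lower were Fosb, an AP-1 subunit, at -0.29, the ERK phosphatase Dusp4 at -0.12, Ier5 at -0.08 and Klf4 at -0.02. These 4 and Klf6 were named after their values were seen, and Dusp4, Ier5 and Klf4 turned sign when certain arrays were left out. The list median was 0.24, 0.12 and 0.16 with the arrays numbered 1, 2 and 3 left out in turn.

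The upstream bases of Nr4a1 are shown because it had the largest difference of this list. They were searched for the CRE half-site, the letters TGACG bound by the CREB and ATF factors. RefSeq places them at chr15:101266596-101266845 on the plus strand of GRCm38.p6, and capitals mark each match on either strand to TGACG or to GGGCGG.
Nr4a1: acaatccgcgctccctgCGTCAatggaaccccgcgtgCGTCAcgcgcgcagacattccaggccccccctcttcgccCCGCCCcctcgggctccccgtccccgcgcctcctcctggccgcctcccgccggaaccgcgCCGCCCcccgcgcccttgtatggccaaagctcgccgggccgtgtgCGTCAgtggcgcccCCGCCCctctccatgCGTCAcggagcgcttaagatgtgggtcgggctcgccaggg
The 4 CRE half-sites lie on the opposite strand, from 233 to 229, 213 to 209, 69 to 65 and 40 to 36 bases before the start, and the 3 GC boxes from 174 to 169, 114 to 109 and 55 to 50, with no overlap among them. Of the 34 immediate early genes 25 had a window, and 13 of these (52.0%) held the half-site in at least 1 window, against 27.9% of the 11133 tested genes with a window. Of 29 complex I genes with a window 12 (41.4%) held it, and of 16 ATP synthase genes 4 (25.0%). The GC box was held by 21 (84.0%) of the 25 immediate early genes with a window, against 57.5% of all tested genes with one.

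Genes of the resting T cell program and of receptor signalling lay slightly higher. Of 20 naive and quiescence genes 17 lay higher, with a median of 0.14 and 10 higher in all 3 pairs (50.0%). That median was 0.04 with linoleic acid array 1 left out, 0.07 without control array 2 and 0.24 without control array 1. Bach2, a repressor that restrains effector programs, read 8.21, 8.43 and 8.04 in control and 8.57, 8.57 and 8.29 with linoleic acid, with 1 treated array inside the control range (log2 0.25 ± 0.16 SE). Foxp1, a factor of quiescence, read 10.46, 10.46 and 10.28 and 10.59, 10.61 and 10.49, without overlap, and the chromatin organiser Satb1 was at 0.22 ± 0.16 SE. The T cell receptor signalling list had 28 of 35 higher, a median of 0.06 and 15 higher in all 3 pairs (42.9%). The adaptor Grap2 read 9.38, 9.26 and 9.28 and 9.52, 9.50 and 9.40, and Nfatc1, a calcium-driven transcription factor, was at 0.32 ± 0.26 SE with pair differences of 0.21, 0.33 and 0.43. The median of the 6 tested T cell surface markers, receptor chains among them, was -0.05. With linoleic acid array 1 left out the receptor signalling median was 0.00. T cell activation genes were split, with 10 higher and 16 lower. Tnf, the cytokine, read 7.93, 7.83 and 8.01 in control and 8.04, 8.29 and 8.40 with linoleic acid, all treated arrays above all controls (log2 0.32 ± 0.17 SE), while the costimulatory receptor Tnfrsf4 read 8.06, 8.57 and 8.53 and 7.79, 8.11 and 8.26 (log2 -0.34 ± 0.15 SE). Of 21 regulatory T cell genes 16 lay lower, and their median was -0.09, or -0.00 with linoleic acid array 3 left out. Ctla4, the inhibitory receptor, was at -0.27 ± 0.13 SE, with pair 3 at -0.64 while pairs 1 and 2 were at -0.14 and -0.03. The other 5 regulatory T cell genes lay higher, Itgae the most at 0.24. In the same comparison 9 of 11 B cell markers lay higher with a median of 0.14 and 9 of 12 myeloid markers with a median of 0.14. With the B cell marker mean as a covariate the medians were 0.17 for immediate early, 0.16 for naive and 0.09 for receptor signalling genes. None of the genes named here passed the limma threshold.

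Interferon-stimulated genes, the antiviral program set off by type I interferon, lay lower. Of 29 tested 26 lay lower, with a median of -0.17 and 12 lower in all 3 pairs (41.4%), and pair medians of -0.22, -0.00 and -0.15 show little difference in pair 2. Ifit1, which binds foreign RNA ends, read 8.67, 8.48 and 8.73 in control and 7.95, 8.25 and 8.20 with linoleic acid, without overlap (log2 -0.50 ± 0.20 SE, unadjusted p = 0.0298 in limma and 0.00509 with the block). It was the only list member with an unadjusted p below 0.05, and 0 of the list passed the limma threshold. Zbp1, a sensor of Z-form nucleic acid, read 10.38, 10.38 and 10.42 and 9.92, 10.32 and 10.24, with number 1 lowest (log2 -0.23 ± 0.13 SE). Oasl1, which restrains Irf7 translation, was at -0.28 ± 0.15 SE without overlap and Herc6, a ubiquitin-like ligase, at -0.23 ± 0.13 SE. The members that lay higher were Stat2, which transmits the interferon signal, at 0.06, Oas3 at 0.02 and the RNA sensor Ifih1 at 0.02, named after their values were seen, and each turned sign when certain arrays were left out. With the arrays numbered 1 left out the list median was -0.06.

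Genes of oxidant defence showed little shared direction, and cell cycle genes lay slightly lower. Antioxidant and NRF2 target genes had 12 of 23 members higher and a median of 0.01. Among the genes with the smallest p in that list were 3 peroxiredoxins, which reduce peroxides. Prdx4 read 5.43, 5.43 and 5.66 in control and 5.42, 5.14 and 4.73 with linoleic acid (log2 -0.41 ± 0.15 SE), so that its linoleic acid array 3 lay below the background level of 5.11. Prdx3, the mitochondrial form, was at -0.33 ± 0.16 SE and Prdx2 at -0.23 ± 0.12 SE. Hmox1, the haem oxygenase, was also among the smallest p and lay higher, at 0.46, with pair differences of 0.60, 0.83 and -0.05. Its cultures overlapped and it lay below the background level. Sat1, of polyamine breakdown, was at -0.36 ± 0.17 SE. Cell cycle genes had 25 of 33 lower, a median of -0.06 and pair medians of -0.04, -0.01 and -0.08, and the median was -0.04 with the arrays numbered 3 left out. In that list the kinase Cdk4 was at -0.18 ± 0.11 SE, the replication clamp Pcna at -0.18 ± 0.12 SE and the topoisomerase Top2a at -0.32 ± 0.21 SE. The kinase Aurkb, with a p between those of Cdk4 and Pcna, lay on the other side at 0.21 (unadjusted p = 0.15 in limma). Among homing receptors Ccr2 was at -0.32 ± 0.13 SE and Cxcr6 at -0.43 ± 0.24 SE, in a list with a median of 0.08. None of these genes passed the limma threshold with or without the block.

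The CD4 response was set against the CD8 response to answer the question of the design, whether the cell types respond differently. The test of the difference, CD4 minus CD8, passed for 0 of 14323 genes (0.0%) in limma, and 336 had an unadjusted p below 0.05. With the block 0 passed and 1189 had such a p. Cpt1a lay at 1.34 in CD4 and 0.90 in CD8 T cells, and the difference of 0.43 ± 0.33 SE had an unadjusted p = 0.211. Among genes above background, predicted genes left out, the smallest p belonged to Ung, a uracil glycosylase, at 0.18 in CD4 and -0.47 in CD8, followed by Klrg2 (-0.31 and 0.42), Osr1 (-0.53 and 0.14), Tbca (-0.60 and 0.05) and Pou2f2 (0.37 and -0.36), and the smallest adjusted p of all genes was 0.953 in limma without and 0.6 with the block. The complex I median was -0.20 in CD4 and -0.13 in CD8, that of interferon-stimulated genes -0.17 and -0.22, that of immediate early genes 0.17 and 0.00 and that of naive genes 0.14 and -0.12. The all-gene median was -0.00 in CD4 and -0.06 in CD8 T cells. For the genes above background it was -0.01 and -0.11, so the CD8 medians of complex I and naive genes lay close to it. Against that same CD8 value, the CD8 median of immediate early genes lay higher and that of interferon-stimulated genes lower. No list was tested for a difference between the cell types.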

How the data were processed

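Total RNA of sorted T cells was hybridized to GeneChip MoGene-2_0-st arrays after amplification, per the labels' protocols. The deposited values are log2 intensities for 41345 probe sets on 12 arrays, made by the authors with RMA, per the submitters' processing notes. RMA's usual steps are background correction, quantile normalization and probe summary. Such values show changes relative to each array's other genes, not in total RNA. RMA's software and version, the summary level and the build were not given in the sources used here. Values were used as deposited. A gene took the probe set with a single symbol and the highest mean over the 12 arrays (23521 probe sets had 1 symbol, 1814 several and 16010 none). Genes with a mean below the 40th percentile of probe sets (log2 4.28) were not tested, and the number of arrays limits the precision.

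Group means were compared in limma 3.58.1 (R 4.3.3; lmFit, eBayes, two-sided, Benjamini-Hochberg over 14323 genes, threshold 0.05) on all 12 arrays, without a block and with the array number as a block, and the code was tested on simulated data. The numbers were treated as pairs, although the labels do not name them as such. Within numbers 1, 2 and 3, the departures of the CD4 control and linoleic acid arrays from the mean of each group had correlations of 0.61, 0.19 and 0.32. Arrays of different number were not compared in this way, so these values cannot decide whether the numbers mark true pairs. The blocked fit is therefore a second reading beside the fit without a block. Named genes were drawn from Cpt1a and the carnitine shuttle, the 10 largest differences each way (unadjusted p under 0.05, no overlap, above background) and the 8 smallest p each way with the block. They were also drawn from up to 4 per list described, Cd3e, Cd4, Cd8a and Cd8b1, and 5 for CD4 minus CD8. Not every gene that met this rule is named. The counts include predicted genes, receptor gene segments, chemosensory receptors and small RNAs, which the text does not name. Genes named outside this rule with a difference are marked in the text. Others, such as Pdk4, Angptl4, Acacb, Ppara, Pparg and some myeloid markers, are given by their level only and are not marked. Members and the 51 lists were chosen with earlier results of these data known. Lists are described by counts and medians and were not tested. Genes of a list are not independent. Promoter sequence is from RefSeq, and 11133 tested genes matched by gene identifier. Alternatives were other blocks, filters, centring, probe set averages, an intensity trend, array weights, marker covariates and left-out arrays.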

Additional observations from a re-analysis of the deposited data

How the results depend on the processing

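In CD4 T cells 0 genes passed without a block, and 1 (Cpt1a) passed with the array number as a block, as a random block, as a block with only CD4 arrays, with array weights and with the B cell or chemosensory mean as a covariate. The block changed no other call. Leaving out arrays gave 0 to 1 genes, the 1 being a small nucleolar RNA without replicate 1. Alternatives chosen after seeing the data gave 1 without number 1 (again that RNA), 5 without number 2, 1 without number 3 and 1 above background, all with the block. Cpt1a's difference in settings where it passed was 1.34 with any block, 1.34 with array weights, 1.38 and 1.43 with the covariates, 1.22 and 1.45 with the block and number 2 or 3 left out, and 1.34 above background with the block (adjusted p from 0.00045 to 0.0463 in limma). Leaving out arrays without a block moved it from 1.17 to 1.498, below the threshold. CD4 minus CD8 gave 0 genes throughout.

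The alternatives covered 137 other genes, of which some are not named here. Of these 137, 0 passed in any alternative other than the 4 chosen after seeing the data, where these genes were not followed. In all others 112 kept their direction. With the chemosensory covariate Cd4 was -0.016, Cd79a -0.0092, Klf4 0.021, Mlycd 0.067, Ndufs5 -0.086, Oas3 -0.0023 and Ppard 0.0061, with the B cell covariate Cd4 was -0.0019, Mlycd 0.014 and Ndufs5 -0.017, and with array weights Mlycd was 0.028, Ndufs5 -0.13 and Ppard 0.045. Crat was -0.0051 with centred arrays and -0.017 with averaged probe sets, and Atp5d -0.040 with the latter. The lowest and highest differences with arrays left out were, for genes that turned sign, Acaca -0.064 to 0.17, Atp5a1 -0.15 to 0.055, Cd3e -0.076 to 0.20, Cd4 -0.060 to 0.17, Cd79a -0.18 to 0.87, Cd8a -0.10 to 0.80, Clec7a -0.023 to 0.81, Cox7a2l -0.048 to 0.081, Crat -0.083 to 0.17, Decr2 -0.16 to 0.0075, Dusp4 -0.30 to 0.019, Ebf1 -0.066 to 0.85, Hilpda -0.30 to 0.051, Ier5 -0.20 to 0.044, Ifih1 -0.084 to 0.12, Klf4 -0.16 to 0.11, Mlycd -0.18 to 0.16, Ndufb11 -0.055 to 0.12, Ndufs5 -0.29 to 0.30, Oas3 -0.082 to 0.17, Ppard -0.22 to 0.13, Sdha -0.083 to 0.086, Speer4c -0.062 to 0.91 and Stat2 -0.045 to 0.18. The cause was not tested. List medians kept their sign in all 21 alternatives for the respiratory, mitochondrial ribosome, import, proteasome, interferon, immediate early and naive lists, and not for the carnitine shuttle, beta-oxidation, PPAR target and glycolysis lists. The B cell marker median ran from -0.27 to 0.57. The number of arrays limits what could pass.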

Other observations

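Gene groups outside the comparisons above lay near 0 in CD4 T cells with linoleic acid. Genes of antigen presentation had 7 of 13 higher and a median of 0.01, cytokine receptor chains had 16 of 25 higher and a median of 0.03, and the transcription factors of the helper lineages had 14 of 24 higher and a median of 0.06. The GIMAP family of lymphocyte GTPases had 6 of 8 higher and a median of 0.04, and cytotoxic and NK receptor genes had 7 of 20 higher and a median of -0.05. Among death and stress genes, the BCL2 family had 13 of 24 higher and a median of 0.02, p53 targets 10 of 17 higher and a median of 0.03, the integrated stress response 8 of 20 higher and a median of -0.04, ER chaperones and the unfolded protein response 9 of 20 higher and a median of -0.02 and defence against lipid peroxides 6 of 13 higher and a median of -0.02. In each of these lists 0 genes passed the limma threshold with or without the block, and from 0 to 1 members had an unadjusted p below 0.05 without it.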
